A study of Mus musculus with 1 sample.

Results

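The cells described here carried transcripts of both a monocyte and a granule program: they held F13a1 and Klf4 and at the same time a clear level of Mpo. They were chosen by 4 genes. A cell needed at least 5 counts of F13a1 (coagulation factor XIII A subunit, made by monocytes and their precursors), at least 2 counts of Klf4 (a transcription factor needed for monocyte formation), at least 3 counts of Mpo (myeloperoxidase, an enzyme of azurophil granules) per 10000 counts of the cell, and under 50 counts per 10000 of Camp (cathelicidin, made by later neutrophil precursors). Of 10528 cells analysed, 799 met the rule (7.59%, exact 95% interval 7.09% to 8.11%), and they are called members below. Since F13a1, Klf4, Mpo and Camp chose them, the levels of these genes in members are a description. In the GENCODE M21 annotation of build GRCm38, F13a1 lies at chr13:36867178-37050244 and Klf4 at chr4:55527143-55532466, both on the minus strand, Mpo at chr11:87793581-87804413 on the plus strand and Camp at chr9:109847379-109849617 on the minus strand.

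All cells came from 1 single-cell RNA-seq library of mouse bone marrow, made with BD Rhapsody capture and TAS-Seq amplification. As the labels have it, 1 naive mouse and 1 mouse given LPS by injection (lipopolysaccharide, a bacterial cell wall component) each gave cKit+ Lin- progenitors and GMP-MoPs, and a naive mouse also gave cMoPs, where GMP-MoP and cMoP name monocyte progenitor populations. Sorted cells had been tagged with 5 barcoded streptavidin hashtags, A961 to A965, before pooling; 100 cells were loaded for each of A961, A962 and A964, and 15000 for each of A963 and A965. The cells analysed numbered 68, 104 and 73 for the small hashtags and 4716 and 5567 for the large ones, so A962 held more cells than the number stated as loaded. Whether some cells were assigned to the wrong hashtag was not tested. Fold comparisons of genes between groups use A963 and A965 only. Values given over all hashtags, shares of cells holding a transcript and cells near a limit of the rule pool all 5. The labels do not tie a hashtag to a mouse or population, so no hashtag is given a treatment here. Each hashtag stands for 1 tagged sample, with no replicate, and each donor group for 1 mouse; strain, age, sex, LPS dose and time after injection are not given in the sources used here. No test between hashtags was therefore possible, and every interval below is an exact 95% interval that covers counting error only.

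Monocytes arise in the marrow from granulocyte-monocyte progenitors, which make the proteins of azurophil granules (serine proteases and myeloperoxidase), and by a separate route from monocyte-dendritic progenitors, which make little of them. On the way to a monocyte, cells gain the receptor for macrophage colony-stimulating factor (Csf1r), the marrow exit receptor Ccr2 and lysosomal proteins, and lose Kit, Cd34 and granule protein transcripts. Irf8 and Klf4 are transcription factors of the monocyte path; Gfi1 and Cebpe act on the neutrophil path.

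The share of members differed between the small and the large hashtags. In A961, 20 of 68 cells were members (29.4%, 19.0% to 41.7%), in A962 20 of 104 (19.2%, 12.2% to 28.1%) and in A964 14 of 73 (19.2%, 10.9% to 30.1%). In A963, 343 of 4716 cells were members (7.27%, 6.55% to 8.05%), and in A965 402 of 5567 (7.22%, 6.55% to 7.93%). The intervals of the 3 small hashtags lay above those of A963 and A965, and the intervals of A963 and A965 overlapped. The rule counts F13a1 and Klf4 raw, and members of A965 were deeper, with a median of 49752 counts a cell against 30190 in A963. With F13a1 of at least 2 and Klf4 of at least 1 per 10000 instead, the shares were 4.96% in A963 and 3.79% in A965, whose intervals did not overlap (4.36% to 5.62% and 3.30% to 4.33%). Under that rule A962 had 8 members of 104 cells (7.69%, 3.38% to 14.6%), which overlapped A963, so the separation of all 3 small hashtags did not hold; A961 (26.5%, 16.5% to 38.6%) and A964 (16.4%, 8.79% to 27.0%) still lay above both.

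**Figure D1:**
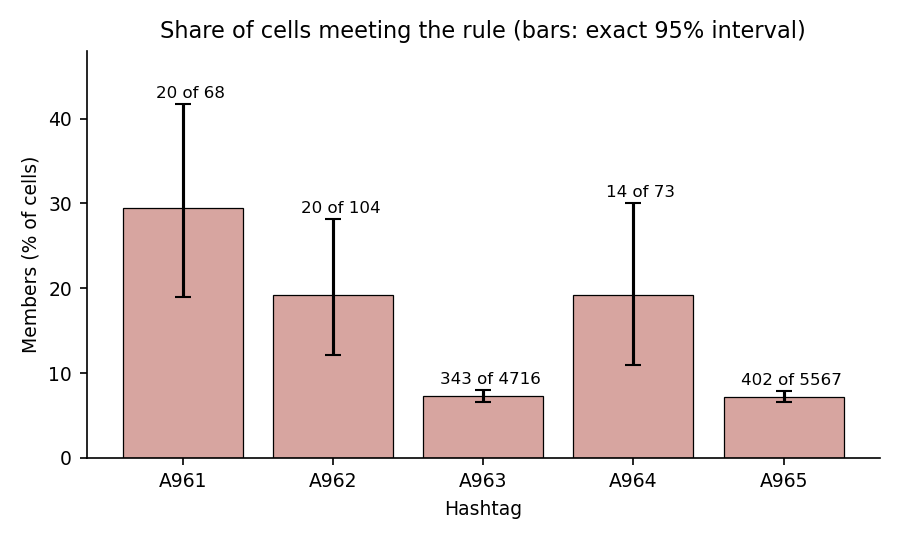
Share of cells that met the rule in each of the 5 hashtags, in percent of the hashtag's cells, with exact 95% binomial intervals as error bars and the number of members above each bar. A961, A962 and A964 stand between 19.2% and 29.4%, A963 and A965 at 7.27% and 7.22%.

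Over all hashtags members were 61.2% of the cells that held both F13a1 and Klf4 and passed the Camp limit. They made up 66.7% of such cells in A963 (62.5% to 70.8%) and 57.8% in A965 (54.0% to 61.5%). In the small hashtags they made up 57.1% in A961 (39.4% to 73.7%), 71.4% in A962 (51.3% to 86.8%) and 43.8% in A964 (26.4% to 62.3%). The other cells of this kind, with Mpo under 3 per 10000, are called Mpo-low monocyte cells; there were 506, of which 171 in A963 and 294 in A965. A second comparison group had Mpo of at least 3 per 10000, F13a1 under 5 counts, Klf4 under 2 counts and the same Camp limit. These Mpo-positive cells low in monocyte genes numbered 1126, of which 562 in A963 and 552 in A965. Depth differed between the groups: median counts a cell were 25597 and 28095 in Mpo-low monocyte cells of A963 and A965, and 23211 and 36217.5 in the Mpo-positive cells.

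**Figure D2:**
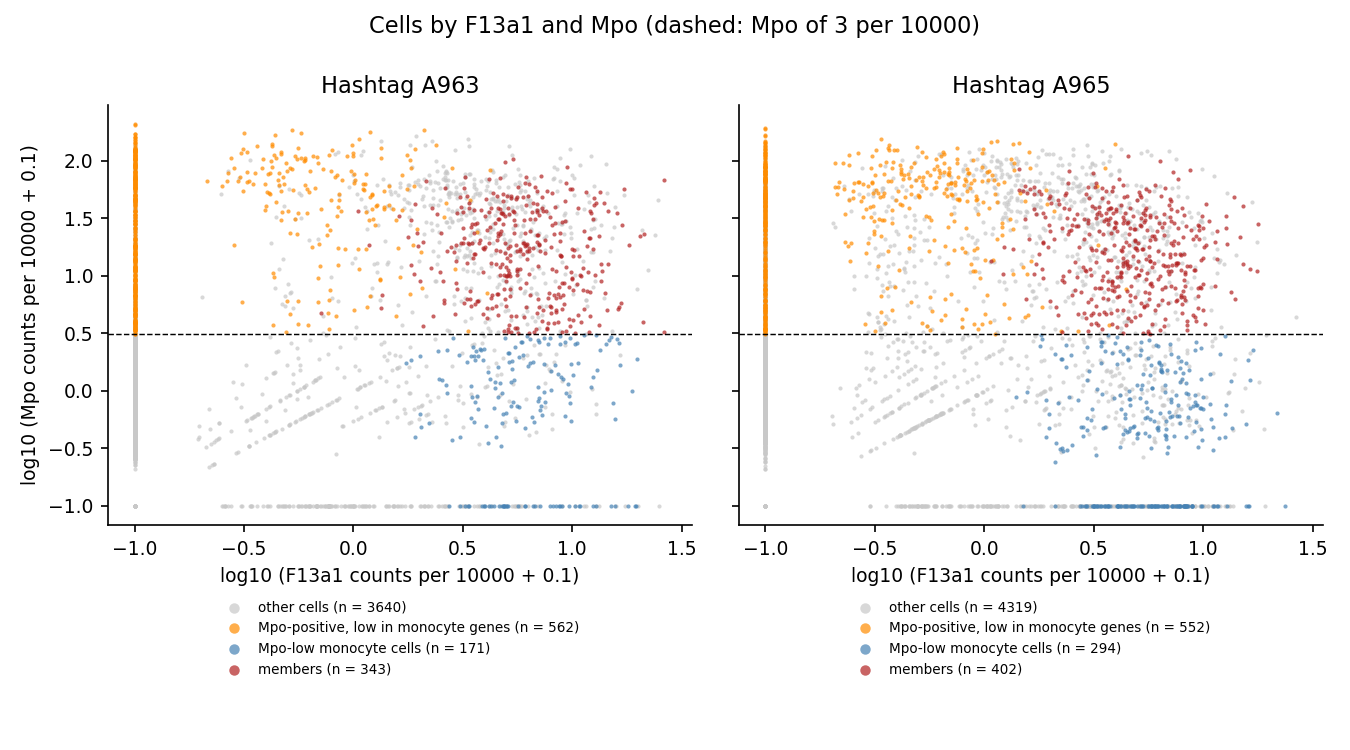
Each point is 1 cell of A963 (left) or A965 (right), by F13a1 (x axis) and Mpo (y axis) in counts per 10000 counts of the cell, both as log10 after adding 0.1; the dashed line marks Mpo of 3 per 10000. Members (343 and 402 cells) form 1 spread with the Mpo-low monocyte cells (171 and 294) that runs over the line, beside the Mpo-positive cells low in monocyte genes (562 and 552).

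Mpo varied widely among members. Its median was 16.5 per 10000, with the middle 50% of cells between 7.70 and 31.4 and the highest at 109. Summed over members it was 1315 CPM in A961, 3960.4 in A962, 2329 in A963, 1578 in A964 and 2286 in A965, where CPM is counts per 1000000 of the summed counts. F13a1 had a median of 5.02 per 10000 and Klf4 of 1.25. Cells on either side of each limit of the rule were as follows. The 71 cells with Mpo of 2 to under 3 per 10000 had 872 CPM of Elane and 1218 CPM of Ms4a6c, and the 55 cells from 3 to under 4 had 1134 and 1239. At F13a1, 9 cells had 4 counts and 21 had 5. At Klf4, 205 cells had 1 count and 152 had 2, and their levels were alike. Elane was 2986 and 3110 CPM, Ms4a6c 931 and 865 and Irf8 574 and 591 at 1 and 2 counts. The F13a1 and Mpo limits were met by 1688 cells, of which 822 also met that of Klf4. Those below the Klf4 limit were in none of the groups compared.

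The 4 markers of early monocyte progenitors that the rule did not use were all present. Trem2, a lipid-sensing receptor of macrophages and related cells, was 110.5 CPM in A961, 48.3 in A962, 80.3 in A963, 67.9 in A964 and 81.6 in A965. Ctsc (cathepsin C, which activates granule serine proteases) was 174 CPM in A961, 159.5 in A962, 162 in A963, 338 in A964 and 328 in A965. Ccr2, the chemokine receptor with which monocytes leave the marrow, was 315 CPM in A961, 202 in A962, 288 in A963, 265 in A964 and 318 in A965. Ms4a6c, a membrane protein of the monocyte lineage, was 1269.6 CPM in A961, 866 in A962, 1029 in A963, 1095 in A964 and 913 in A965. Together these 4 summed to between 1276 and 1869 CPM in the 5 hashtags, against 640 CPM over all cells analysed. They did not set members apart from the Mpo-low monocyte cells. Over all hashtags Trem2 was 80.7 CPM in members and 79.6 in Mpo-low monocyte cells. Ctsc was 266.2 and 377.4, Ccr2 304.7 and 584.2 and Ms4a6c 961.2 and 1325.2 CPM in the same order. Among members, Ctsc was higher in A964 and A965 than in the other 3 hashtags, and their counting intervals did not overlap. Ccr2 and Ms4a6c were lowest in A962 and within 1.5-fold of each other in the other 4. Of the 6 monocyte markers (Csf1r, Ly6c2, Fn1, Ly86, Ctss, Cx3cr1), 5 were above their level over all cells and Fn1, the matrix protein fibronectin, was not. Ly6c2 has a near-identical copy, Ly6c1, and how the counting divided reads between them is not given in the sources used here.

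Markers of other lineages were low. The 6 dendritic markers summed to 104 to 207 CPM in members of the 5 hashtags, against 512 CPM over all cells, and none of the 6 was above its level over all cells. The 3 megakaryocyte, 4 lymphoid and 4 stem markers each summed to at most 5.55 CPM in any hashtag. The 4 basophil and mast markers summed to 0 to 63.7 CPM, against 199 over all cells, and the 4 erythroid markers to 50.9 to 308, against 2449. Of the 5 neutrophil markers outside the rule only Elane was above its level over all cells, and the list summed to 2244 to 6496 CPM against 16855. No marker of these lists was at 0 over all members. Scrublet, a doublet caller, marked 15 members (1.88%), against 223 of all cells (2.12%), and 10 of 190 cells named doublets by the authors met the rule (5.26%, 2.55% to 9.47%). The part of doublets in the results was not tested beyond leaving out the Scrublet calls.

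Single members held transcripts of both programs after every cell was thinned to 8800 counts. Elane and Irf8 were found together in 95.1% of members (93.4% to 96.5%), in 60.5% of Mpo-low monocyte cells and in 24.6% of Mpo-positive cells. Prtn3 and Ccr2 were found together in 82.9% of members (80.1% to 85.4%), in 83.8% of Mpo-low monocyte cells (80.3% to 86.9%) and in 15.7% of Mpo-positive cells. Elane and Csf1r were found together in 54.9% of members, 35.2% of Mpo-low monocyte cells and 8.88% of Mpo-positive cells. Before thinning, Elane was found in 99.0% of members and Csf1r in 89.5%. Free RNA can place granule transcripts in any cell. In 255 globin-high cells, which should lack them, Elane was found in 22.7% and Mpo in 23.1% after thinning, at 49.4 and 38.9 CPM, against 97.1% and 99.9% of members at 2580.1 and 2306 CPM; median depth was 32516 counts in those cells and 39823 in members. Elane and Irf8 were found together in 2.35% of the globin-high cells. In 574 cells with at least 5 counts of Siglech, a dendritic marker, the levels were higher. Elane was found in 31.5% and Mpo in 29.97% after thinning, at 404.2 and 363.5 CPM, with a median depth of 14512.5 counts. Elane and Irf8 were found together in 31.4% of them, Prtn3 and Ccr2 in 11.1% and Elane and Csf1r in 3.14%. Irf8 was found in 99.5% of them. The source of granule transcripts in these cells was not tested.

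Members lay between the comparison groups in azurophil granule transcripts, but not in those of later neutrophil granules. Of 11 azurophil granule genes other than Mpo, 9 were at least 1.5-fold higher in members than in Mpo-low monocyte cells in both A963 and A965, and 9 were at least 1.5-fold lower than in the Mpo-positive cells. The exceptions were Serpinb1a and Ctsc in the first comparison and Prtn3 and Ctsc in the second. A gene counts here when it differs by that fold the same way in both hashtags, after adding 10 CPM, among genes with a mean of at least 20 CPM. Over all genes tested, 2.35% (128 of 5437) were higher and 2.87% (156) lower in members than in Mpo-low monocyte cells, and 6.62% (367 of 5547) were higher and 3.79% (210) lower than in the Mpo-positive cells. With median-of-ratios scaling the second comparison gave 492 higher and 163 lower. As Mpo and F13a1 set the groups, these counts describe the groups and test nothing. The 15 later neutrophil granule genes outside the rule summed to 5116 and 6205 CPM in members of A963 and A965, the lowest of the groups, against 6168 and 10719 in Mpo-low monocyte cells and 11829 and 15460.3 in the Mpo-positive cells. Against Mpo-low monocyte cells 3 of 13 tested were lower (Chil3, Mmp8 and Ifitm6) and none higher.

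Among the granule serine proteases, which digest proteins inside the granule and outside the cell, Elane (neutrophil elastase) was 1867 CPM in A961, 5891 in A962, 2431 in A963, 2089 in A964 and 2579 in A965 in members. It was 651 CPM in A963 and 367 CPM in A965 in Mpo-low monocyte cells and 6724 CPM in A963 and 5153 CPM in A965 in the Mpo-positive cells. Prtn3 (proteinase 3) was 3431 CPM in A961, 5987 in A962, 3793 in A963, 4195 in A964 and 4938 in A965. Ctsg (cathepsin G) was 1489 CPM in A961, 2247 in A962, 1578 in A963, 1585 in A964 and 1987 in A965. A962 had the highest level of all 3 in members, and also of Mpo. Against Mpo-low monocyte cells, Elane was higher 3.74-fold in A963 and 7.04-fold in A965, Prtn3 2.44-fold in A963 and 4.32-fold in A965 and Ctsg 2.53-fold in A963 and 8.64-fold in A965. The promoters of these genes are shown because their transcripts were higher together in members with more Mpo. Each runs from 250 bases before to 50 bases after the RefSeq start, 5′ to 3′ on the gene's strand, in build GRCm38.p6. Capitals mark exact matches, on either strand, to the core bound by the myeloid factor PU.1 (GAGGAA) and, in Ctsg alone, to the RUNX core (TGTGGT, printed as its reverse complement).
Mpo promoter, chr11:87793534-87793833, plus strand: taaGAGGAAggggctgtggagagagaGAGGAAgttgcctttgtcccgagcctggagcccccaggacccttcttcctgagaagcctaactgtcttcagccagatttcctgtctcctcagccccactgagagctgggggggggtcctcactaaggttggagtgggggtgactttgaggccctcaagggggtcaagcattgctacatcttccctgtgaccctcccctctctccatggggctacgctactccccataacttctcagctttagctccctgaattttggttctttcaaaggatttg
Elane promoter, chr10:79886062-79886361, plus strand: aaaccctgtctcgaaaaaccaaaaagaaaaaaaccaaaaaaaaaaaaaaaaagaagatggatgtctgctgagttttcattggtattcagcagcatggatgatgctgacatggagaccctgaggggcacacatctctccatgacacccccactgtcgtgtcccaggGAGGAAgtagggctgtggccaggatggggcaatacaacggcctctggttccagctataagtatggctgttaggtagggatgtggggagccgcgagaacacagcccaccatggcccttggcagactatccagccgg
Prtn3 promoter, chr10:79879417-79879716, plus strand: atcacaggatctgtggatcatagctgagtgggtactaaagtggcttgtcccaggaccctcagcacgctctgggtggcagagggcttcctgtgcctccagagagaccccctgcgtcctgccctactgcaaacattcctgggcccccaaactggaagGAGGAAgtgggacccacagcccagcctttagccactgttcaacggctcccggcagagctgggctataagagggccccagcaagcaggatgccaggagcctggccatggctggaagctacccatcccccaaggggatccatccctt
Ctsg promoter, chr14:56102525-56102824, minus strand: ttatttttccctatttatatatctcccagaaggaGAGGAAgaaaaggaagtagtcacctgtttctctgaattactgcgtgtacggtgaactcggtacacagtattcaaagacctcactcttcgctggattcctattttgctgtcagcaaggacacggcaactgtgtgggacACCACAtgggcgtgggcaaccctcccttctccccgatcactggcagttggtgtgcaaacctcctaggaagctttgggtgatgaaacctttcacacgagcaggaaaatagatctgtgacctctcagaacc

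The PU.1 core began 85 bases before the start in Elane, 95 in Prtn3, 216 in Ctsg, and 247 and 224 in Mpo, and it reads on the printed strand in all of them. Of all 32851 RefSeq promoters of this length, 28.3% held the PU.1 core on either strand, 16.8% the RUNX core and 10.8% the paired C/EBP half-sites TTGCNNAA. In all, 12 promoters of 10 genes were examined, and 7 promoters of 6 genes held the PU.1 core: the 4 printed, both of F13a1 and that of Trem2. Those of Klf4, Irf8, Ccr2 and Ms4a6c did not, so the core was in promoters of both granule and monocyte genes. Of the 12 only that of Trem2 held the C/EBP letters and only that of Ctsg the RUNX core. A match describes the sequence and was not measured as binding.

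Other azurophil genes followed the same order. Ms4a3, a membrane protein typical of granulocyte-monocyte progenitors and their progeny, was 145 CPM in A961, 513 in A962, 238 in A963, 258 in A964 and 423 in A965 in members, against 37.5 and 36.3 CPM in Mpo-low monocyte cells of A963 and A965 and 1061 and 1245 CPM in the Mpo-positive cells. Srgn (serglycin, the proteoglycan that packs granule proteins) was 544 and 1103 CPM in members of A963 and A965, 194 and 280.3 in Mpo-low monocyte cells and 2149 and 2833 in the Mpo-positive cells. Nkg7, a granule membrane protein, was 89.4 and 159, 9.05 and 14.9 and 836 and 854 CPM in the same order. Ctsc ran the other way and was lowest in the Mpo-positive cells, at 25.1 and 30.3 CPM, with 206 and 467 in Mpo-low monocyte cells. The median log2 ratio of the 11 genes against Mpo-low monocyte cells was 1.28 in A963 and 2.05 in A965, where the median of all genes tested was 0.02 and 0.07; against the Mpo-positive cells it was -1.46 in A963 and -0.996 in A965, where that of all genes was 0.00 and -0.04.

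Some monocyte genes had much the same level in members as in Mpo-low monocyte cells, and others were lower. Csf1r was 123 CPM in A961, 109 in A962, 116 in A963, 109 in A964 and 96.8 in A965 in members, against 110.3 and 135 CPM in Mpo-low monocyte cells of A963 and A965. Trem2 in those cells was 72.6 and 85.3 CPM and Ly86, a partner of the receptor-like protein RP105, 396 and 399, with 386 and 341 CPM of Ly86 in members. None of these 3 differed by 1.5-fold in both hashtags. Other monocyte genes were lower: 10 of the 16 tested in the monocyte identity list were at least 1.5-fold lower in members than in Mpo-low monocyte cells, none higher, with a median log2 ratio of -0.70 in A963 and -1.03 in A965. Ccr2 was among them, at 288 and 318 CPM against 457 and 659.6. Lgals3 (galectin-3) was 594 and 526 against 1368 and 1823 CPM, and Fn1 25.8 and 10.7 against 84.4 and 149. Against the Mpo-positive cells all 14 tested genes of the list were higher, and Lgals3 was higher 20.2-fold in A963 and 15.9-fold in A965.

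For each comparison up to 12 genes a direction are named by rank of their log2 ratio, among genes that reached 100 CPM and were found in 25% or more of the cells in the higher group. The genes ranked lowest in members against Mpo-low monocyte cells were these. Ifi27l2a, an interferon-induced gene, was 66.8 and 40.7 CPM in members of A963 and A965 and 279.8 and 547 CPM in those cells. Lyz2 (lysozyme) was 2656 and 3226 against 5927 and 13942 CPM, and the calcium-binding S100a4 was 375 and 317 against 1142 and 1624. Wfdc17 and the chemokine Ccl6 were also lower, Wfdc17 by 3.64-fold in A963 and 7.89-fold in A965 and Ccl6 by 3.30-fold in A963 and 7.84-fold in A965. In each case the difference was the larger in A965, whose Mpo-low monocyte cells held more of these transcripts than those of A963. The rest of the 12 named as lower were Crip1, Rnase6, S100a6, Pirb, Ms4a4c and Lsp1 together with Lgals3. Of 6 interferon-stimulated genes tested, 3 were lower (Ifitm3, Ifi27l2a and Zbp1), and of 10 chemokine and adhesion receptors 5 were lower, among them the integrin subunits Itgam and Itgb2.

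Many of the biosynthesis genes tested were higher in members than in Mpo-low monocyte cells. Of 11 ribosome biogenesis and Myc target genes tested, 8 passed 1.5-fold upward and 0 downward, with a median log2 ratio of 0.63 in A963 and 1.25 in A965. Ncl (nucleolin) was 526 and 604 CPM in members of A963 and A965 and 346 and 283 in those cells. Of 11 genes for chaperones of the endoplasmic reticulum, 4 were higher: Hspa5, Calr, Pdia4 and Pdia6. Hspa5 (BiP) was 306 and 424 CPM against 189.9 and 138. Cdk6, a kinase of the entry to the cell cycle, was 129 and 137 CPM against 30.1 and 36.1, Phgdh (serine synthesis) 108 and 141 against 41.1 and 30.1 and Mif 775 and 996 against 332 and 307. The 12 named as higher were completed by Mt1, C1qbp, Igfbp4, Calr, Srgn and Ms4a3 with the 3 serine proteases.

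In G2/M genes members lay between the other groups, and in S phase genes they did not in A963. The 14 G2/M genes summed to 4013 and 4137 CPM in members of A963 and A965, 5712 and 5683 in Mpo-low monocyte cells and 2221 and 2720.3 in the Mpo-positive cells. Ube2c, a mitotic ubiquitin-conjugating enzyme, was 421 and 404, 832 and 839.7 and 160.4 and 198 CPM in the same order. Against Mpo-low monocyte cells 2 of the 14 genes were lower (Ccnb2 and Ube2c), and against the Mpo-positive cells 6 were higher. The 14 S phase genes summed to 2211 and 2381 CPM in members, with 1812 and 1551 and 2101 and 2458 in Mpo-low monocyte and Mpo-positive cells.

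Most progenitor genes tested were lower in members than in the Mpo-positive cells, and 2 of the 5 that could be tested were higher than in Mpo-low monocyte cells. Kit, the stem cell factor receptor named in the sort, was 6.05 CPM in A961, 10.7 in A962, 8.55 in A963, 3.40 in A964 and 2.68 in A965, and before thinning 10.6% of members had a Kit count. In the Mpo-positive cells it was 63.6 CPM in A963 and 38.7 CPM in A965. Cd34 was 57.5 CPM in A961, 26.8 in A962, 55.6 in A963, 17.0 in A964 and 22.4 in A965 in members and 203 CPM in A963 and 147 CPM in A965 in the Mpo-positive cells. Of 10 stem and progenitor genes tested, 9 were lower in members than in the Mpo-positive cells and none higher, with a median log2 ratio of -1.71 in A963 and -1.73 in A965; Myb, a factor of dividing progenitors, was 75.1 and 63.9 against 269.9 and 256 CPM. Against Mpo-low monocyte cells 2 of 5 tested were higher (Myb and Cdk6) and none lower, with a median log2 ratio of 0.57 in A963 and 0.61 in A965, and the 15 genes summed to 481 and 355 CPM in members against 275 and 154. Kit protein at the cell surface was not analysed here.

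Among transcription factors, members had Irf8 at about the level of Mpo-low monocyte cells and little Gfi1 or Cebpe. Irf8 was 788 CPM in A961, 697 in A962, 740.4 in A963, 647 in A964 and 638 in A965 in members, against 805 and 545 CPM in Mpo-low monocyte cells and 193 and 135 in the Mpo-positive cells of A963 and A965. Zeb2 and Irf5 were also higher than in the Mpo-positive cells; Irf5 was 64.3 and 62.8 CPM in members, below the 111 and 137 of Mpo-low monocyte cells. The neutrophil path factors were low: Gfi1 was 4.14 and 3.50 CPM in members and 38.5 and 47.4 in the Mpo-positive cells, and Cebpe 19.7 and 24.6 and 128 and 158. Spi1 (PU.1) was 329.7 and 359, 392 and 421 and 229.5 and 256 CPM in members, Mpo-low monocyte cells and Mpo-positive cells, and Cebpa 87.9 and 75.1, 63.6 and 53.3 and 99.9 and 98.6; neither differed by 1.5-fold in both hashtags in either comparison. Of 18 factors listed besides Klf4, 10 could be tested against Mpo-low monocyte cells, of which Myb was higher and Irf5 and Id2 lower.

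The Mpo-positive comparison cells included some with basophil and mast cell transcripts. They held 493 and 395 CPM of Mcpt8, a protease of basophils, against 8.20 and 24.0 in members. All 5 basophil and mast genes tested were lower in members. Without comparison cells of at least 10 Mcpt8 per 10000, 376 genes were higher and 201 lower. Cd63 and Pglyrp1 (a peptidoglycan recognition protein of neutrophil granules) were among the 12 genes named as lower in members, Cd63 by 19.7-fold in A963 and 23.5-fold in A965 and Pglyrp1 by 6.83-fold in A963 and 5.43-fold in A965. S100a9, a calcium-binding protein abundant in neutrophils, was 1614 and 1857 CPM in members and 4804 and 6130.4 in these cells. Of 13 lysosome genes 8 were higher in members, among them Psap (prosaposin) at 1291 and 1206 against 215 and 214 CPM and Ctsh at 253 and 269.9 against 40.9 and 42.6. The lectin Clec7a was higher 9.54-fold in A963 and 12.3-fold in A965.

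**Figure D3:**
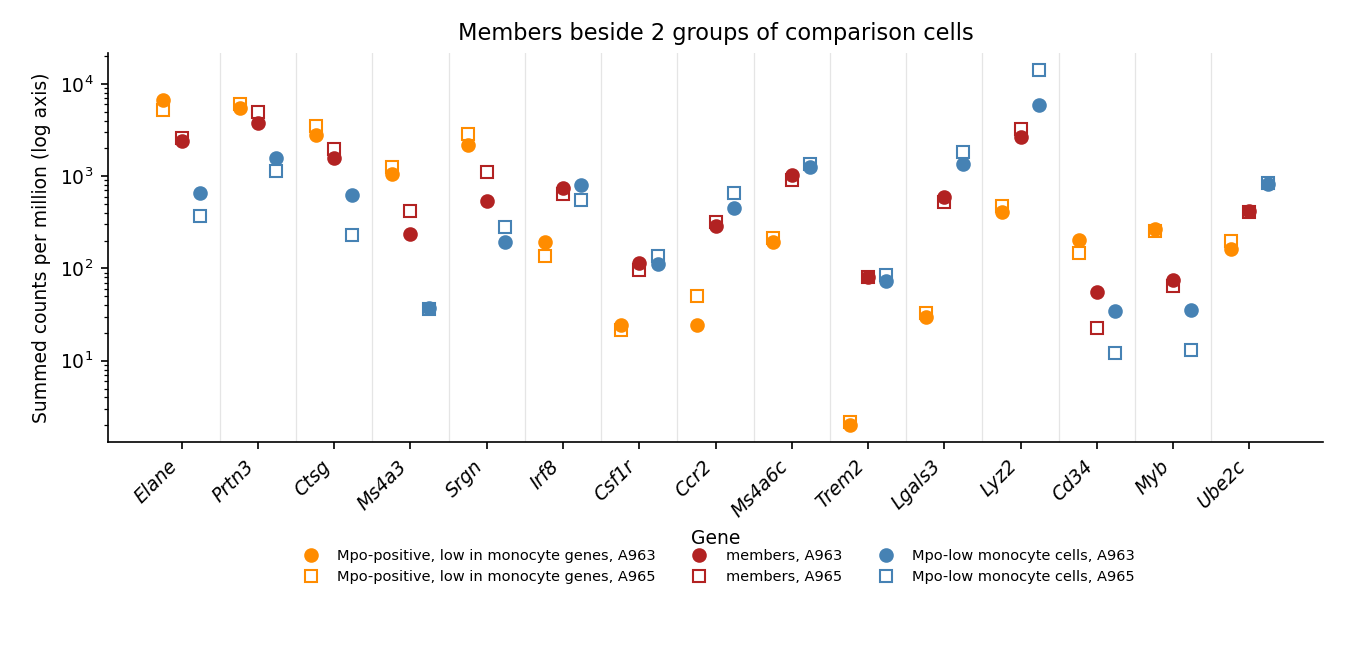
Summed CPM on a log axis for 15 genes in Mpo-positive cells low in monocyte genes (orange), members (red) and Mpo-low monocyte cells (blue), with filled circles for A963 and open squares for A965. For Elane, Ctsg, Ms4a3 and Srgn members lie between the groups from above, for Lgals3, Lyz2 and Ube2c from below, and for Trem2 and Csf1r they lie with the Mpo-low monocyte cells.

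Within members, cells with more Mpo held more of the other granule transcripts and fewer monocyte transcripts. Members of A963 and of A965 were each ordered by Mpo per 10000 and cut into 3 equal parts, with median Mpo of 5.37, 16.8 and 38.6 in A963 and 6.38, 16.5 and 38.0 in A965. The 11 other azurophil genes summed to 6314, 9446 and 12929.6 CPM from the lowest to the highest part in A963, and to 8009, 12127 and 17683 CPM in A965. The 17 monocyte identity genes other than F13a1 summed to 13820.1, 12227 and 9353 CPM in A963 and to 13368, 10746 and 8249 CPM in A965. Between the highest and the lowest part, 2.56% of genes tested (140 of 5460) were at least 1.5-fold higher and 2.89% (158) lower in both hashtags. Of the 11 azurophil genes 9 were higher and 1 lower (Ctsc), and of 16 monocyte genes tested 10 were lower and none higher. Mpo ordered the cells, so these values are a description. Median depth was 33544 counts in the highest part of A963 and 29259 in the lowest, and 55754 and 48120 in A965.

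Elane followed Mpo at 1356, 2369.7 and 3418 CPM from the lowest to the highest part in A963 and at 1416, 2365 and 3771 in A965. Ms4a3 was 115, 224 and 358 CPM in A963 and 170.5, 352 and 702 in A965. Cdk6 was 65.7, 104 and 205 and 66.1, 116 and 216. Progenitor and biosynthesis genes thus ran with Mpo: Myb was 39.2, 72.7 and 108 CPM in A963, and 9 of 12 ribosome biogenesis and Myc target genes were higher in the highest part. Lyz2 ran against it, at 4492, 2795 and 939 CPM in A963 and 5707, 3139.5 and 1162 in A965. Lgals3 was 991, 613 and 232 and 905, 528 and 197 CPM, and Trem2 108, 87.0 and 50.2 and 122, 83.6 and 44.6. Ccr2 was 389.9, 296 and 193 and 412, 330.5 and 227 CPM. Irf8 barely moved, at 746, 723 and 751 CPM in A963 and 667, 655 and 597 in A965, and Ly6c2 and Ms4a6c were lower in the highest part, Ly6c2 at 7836, 7517 and 6244 and 7579, 6474 and 5542 CPM and Ms4a6c at 1169, 1082 and 862 and 1118, 940.4 and 713.

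Globin transcripts were the other large difference between these parts. The 4 globin genes summed to 1632 CPM in the lowest part of A963 and 140.4 in the highest, and to 1083 and 117 CPM in A965. Only 7 of 799 members held at least 10 globin counts per 10000, 4 in A963 and 3 in A965, and Scrublet marked 4 of these 7. Without them and without all Scrublet calls, the lowest part held 118 CPM in A963 and 108 in A965 and the highest 131 and 116. Scrublet calls by part, from the lowest to the highest Mpo, were 5, 1 and 0 in A963 and 5, 2 and 1 in A965.

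**Figure D4:**
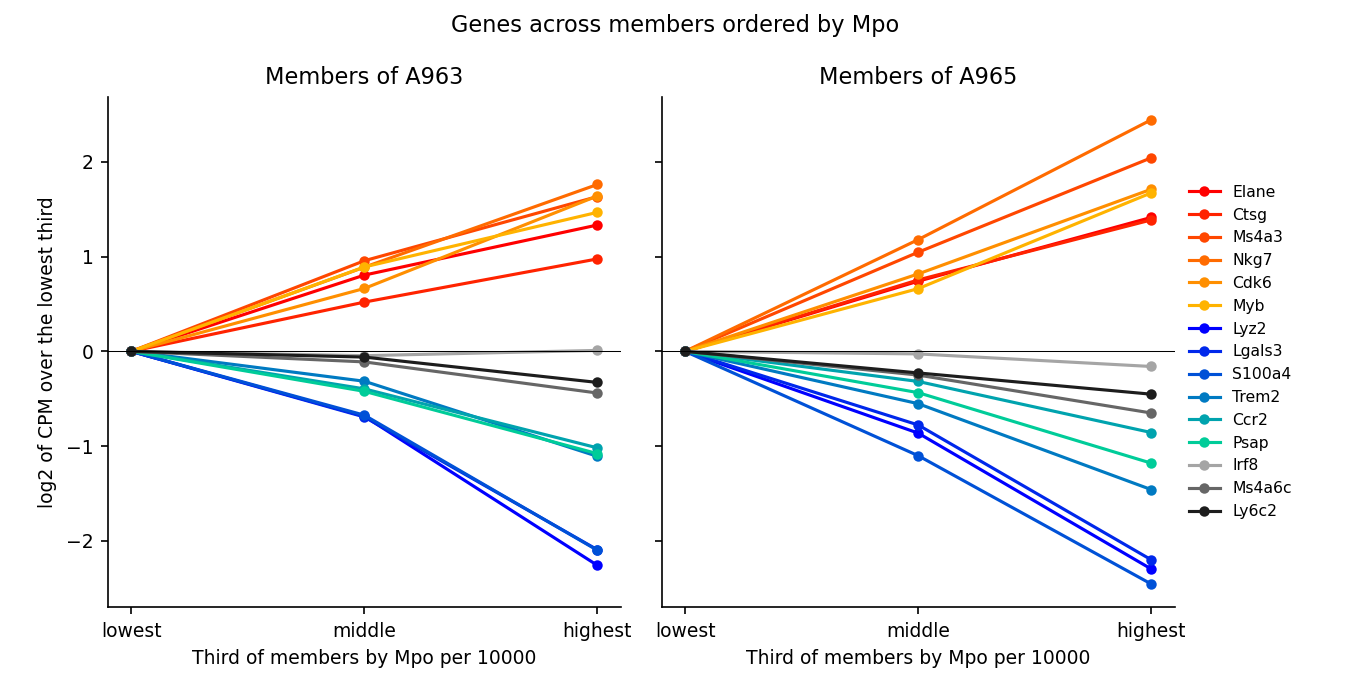
Members of A963 (left) and A965 (right) in 3 equal parts by Mpo per 10000 (x axis, from lowest to highest), with each gene's CPM as log2 over its level in the lowest part (y axis). Genes in red to yellow (Elane, Ctsg, Ms4a3, Nkg7, Cdk6, Myb) lie above 0, genes in blue to green (Lyz2, Lgals3, S100a4, Trem2, Ccr2, Psap) lie below it, and Irf8, Ms4a6c and Ly6c2 in grey to black lie nearest to 0.

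Members of the large hashtags A965 and A963 were then compared with each other. They had like Mpo, with 33.2%, 39.1% and 27.7% of members of A963 and 31.1%, 41.8% and 27.1% of members of A965 at 3 to under 10, 10 to under 30 and at least 30 per 10000. Few genes differed: 0.699% (38 of 5438 tested) were at least 1.5-fold higher in A965 and 0.497% (27) lower. Elane was 1.06-fold (95% counting interval 1.05 to 1.08) and Irf8 0.861-fold (95% counting interval 0.838 to 0.885) its level in A963, and Trem2 1.02-fold (95% counting interval 0.937 to 1.10). In each hashtag the cells came from 1 tagged sample, so hashtag, mouse, sort and treatment cannot be told apart. The hashtags also differed in sex-linked transcripts. Xist, made from the inactive X chromosome of females, was 584 CPM in A961, 472 in A962, 598 in A963, 64.5 in A964 and 8.71 in A965 in members, and the Y-linked Eif2s3y was 0 CPM in A961, 4.02 in A962, 2.82 in A963, 44.2 in A964 and 41.8 in A965.

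Ifitm1 and Dmkn ranked highest of the genes named as higher in A965, and 6 of 11 azurophil granule genes were also higher. Ifitm1, an interferon-induced membrane protein, was 24.2 CPM in A961, 36.2 in A962, 51.3 in A963, 190.2 in A964 and 325 in A965 and so 6.34-fold (95% counting interval 5.83 to 6.91) higher in A965 than in A963. Chil3, a chitinase-like protein of neutrophil precursors and monocytes, was 334 CPM in A961, 507 in A962, 252 in A963, 1311 in A964 and 542 in A965. Ctsc, given above, was higher in A965 by 2.02-fold (95% counting interval 1.92 to 2.13), Srgn by 2.03-fold (95% counting interval 1.97 to 2.09) and Ms4a3 by 1.77-fold (95% counting interval 1.70 to 1.85). Dmkn (dermokine) was 71.1 CPM in A961, 101 in A962, 70.3 in A963, 155 in A964 and 174 in A965. The chemokine Ccl9 and the antimicrobial Lcn2 (lipocalin-2) were higher by 1.89-fold and 1.80-fold. Saa3, an acute-phase protein, was 3.03 CPM in A961, 14.7 in A962, 5.99 in A963, 67.9 in A964 and 37.8 in A965. Of the 11 azurophil genes outside the rule 6 were higher in A965 (Prss57, Ms4a3, Nkg7, Srgn, Serpinb1a and Ctsc) and none lower, with a median log2 ratio of 0.63 against 0.01 over all genes tested. Of 11 later neutrophil granule genes 3 were higher (Lcn2, Chil3 and Wfdc21). Of 4 genes tested in the interferon-stimulated list 0 were higher and 1 was lower (Ifi27l2a), with a median log2 ratio of -0.28. The others of the 12 named as higher were Gda, Mt1, Ifi30 and Hp. Not all of these differences were particular to members. Ifitm1 was 343 CPM in A963 and 1101 CPM in A965 in the Mpo-positive cells. Ctsc was also higher in A965 in Mpo-low monocyte cells, whereas Ms4a3 was 37.5 CPM in A963 and 36.3 CPM in A965 there. Genes were not called between hashtags in the comparison cells.

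Progenitor surface genes were among those lower in A965. Cd34, given above, was lower by 2.48-fold (95% counting interval 2.20 to 2.81), and Cd93, a membrane protein of early progenitors, was 112 CPM in A961, 119 in A962, 132 in A963, 71.3 in A964 and 67.7 in A965, lower by 1.95-fold (95% counting interval 1.82 to 2.10). Noct (nocturnin) was 163 CPM in A961, 184 in A962, 186 in A963, 86.6 in A964 and 103 in A965. Cx3cr1, the fractalkine receptor of monocytes, was 57.5 CPM in A961, 37.5 in A962, 45.3 in A963, 25.5 in A964 and 26.7 in A965. Clec4a2, Cfp (properdin, of the complement system), Crip1 and Prdx4 were lower by 1.58-fold to 1.68-fold. H2-DMa, Rsrp1, Zfp36l2 and Grcc10 completed the 12 ranked lowest, but after 10 CPM were added they did not reach 1.5-fold and are not among the 27. Hba-a1, a globin, was lower by 1.57-fold, and was higher instead, by 0.59 on the log2 scale, with Mpo of at least 6 per 10000. Of 10 monocyte and myeloid transcription factors tested none differed by 1.5-fold, nor did any of the 14 S phase or 14 G2/M genes.

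Most of the named differences had the same direction among members of like Mpo. The genes were named from these same members, which the 3 Mpo ranges only divide. A shared direction was therefore largely set in advance, and these values are a description. Ifitm1 was higher in A965 by 5.72-fold, 5.73-fold and 7.73-fold at Mpo of 3 to under 10, 10 to under 30 and at least 30 per 10000. Srgn was higher by 1.80-fold, 2.00-fold and 2.15-fold and Ctsc by 2.05-fold, 2.05-fold and 1.93-fold in the same order. Cd34 was lower in A965 by 2.83-fold, 2.14-fold and 2.68-fold. Of the 12 genes named as higher in A965, all 12 were higher in all 3 Mpo ranges and 9 by at least 1.5-fold in each, counted as elsewhere after 10 CPM were added, whereas Ms4a3, Chil3 and Hp missed that fold in at least 1. Of the 12 named as lower, 11 were lower in all 3 and 3 by at least 1.5-fold (Xist, Cd93 and Noct). Chil3 differed most in the lowest range, with 3.33-fold, 1.51-fold and 1.77-fold before CPM were added.

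The small hashtags gave 20, 20 and 14 members, so their values rest on few cells, and A962 held more cells than were stated as loaded. Members of A962 held the most Mpo, with a median of 30.1 per 10000 against 9.42 in A961 and 9.55 in A964, and with it the most Elane, Prtn3, Ctsg and Ms4a3 and the least Lgals3 (339 CPM, against 958 in A961 and 761 in A964) and S100a4 (139, 805 and 391 CPM). A964 stood nearer to A965 than to A963 in Ifitm1, Ctsc, Dmkn, Saa3 and Xist, and A961 and A962 stood nearer to A963 in Ifitm1, Ctsc, Saa3 and Xist. Other genes given above did not divide this way. In Ms4a3 A964 stood nearer to A963, and in Cd34, Chil3 and Ms4a3 A962 stood nearer to A965. Chil3 was highest in A964. Prss57, a granule protease, was 4.54 CPM in A961, 168 in A962, 37.3 in A963, 69.6 in A964 and 94.3 in A965, highest in A962 and lowest in A961.

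**Figure D5:**
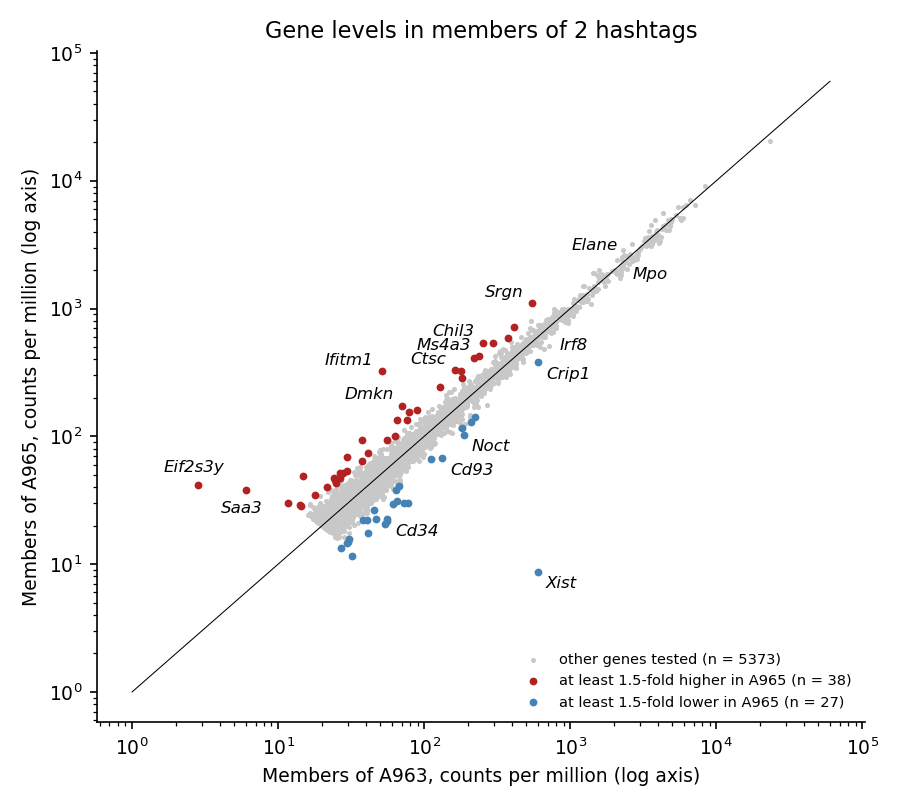
Each point is 1 of 5438 genes tested, by its CPM in members of A963 (x axis) and of A965 (y axis), both on log axes, with the line of equal levels. The 38 genes at least 1.5-fold higher in A965 are red and the 27 lower are blue; Mpo, Elane and Irf8 lie along the line, Ifitm1 well above it and Xist far below it.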

How the data were processed

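One single-cell library was analysed as the authors deposited it: a table of raw counts of 25661 genes in 10731 cells, with the hashtag in each cell's name. Per the labels it was made with BD Rhapsody and TAS-Seq. Per the submitters' processing notes the tools and build listed are Seurat 4.2.0, R 4.2.1 and GRCm38, without their roles. The aligner and annotation, and whether counts are molecules or reads, are not given in the sources used here. Values of 2 were 54.7% as frequent as values of 1.

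Cells the authors named doublets (190) or without a hashtag (6) were set aside, as were 7 cells with under 500 genes or over 20% mitochondrial counts. This left 10528 cells of 8822 to 140994 counts each, in which no barcode number was used more than once. Scrublet (scanpy 1.11.5, expected doublet rate 0.06) marked cells, which stayed in except in 1 alternative. Counts of a group's cells were summed within a hashtag and given as CPM. Log2 ratios used 10 CPM added, for genes of a mean of at least 20 CPM, and the step was tested on simulated data. With 1 library and no replicate of a hashtag, no p-value was computed. Shares have exact Clopper-Pearson intervals, sums Poisson intervals and ratios conditional binomial intervals, all 95% and for counting error only; cells of a hashtag are not replicates.

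Up to 12 genes each way were named per comparison, ranked by log2 ratio (by the smaller of both where 2 hashtags were used), if the higher group had 100 CPM or more and 25% or more of its cells held a count. Left out were the rule genes, ribosomal proteins, mitochondrial genes and genes known only by Gm or Rik names. Markers and members of 29 gene lists (322 genes, 2 not in the table) were added as examples. The members and lists were chosen with earlier results of these data known. Promoter sequences are RefSeq's, build GRCm38.p6. Alternatives changed the rule's limits, the CPM added, the CPM minimum, the scaling, the depth and the cells included; 3 of them were chosen after seeing the data. Python 3.11.15, numpy 2.4.6, scipy 1.17.1 and matplotlib 3.10.9 were used.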

Additional observations from a re-analysis of the deposited data

Results flagged for a closer look

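Cells that the authors named doublets took no part in the comparisons, and 10 of these 190 met the same 4-gene rule (5.26%, exact 95% interval 2.55% to 9.47%). Among the 10528 cells analysed the rule was met by 7.59%.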

How the results depend on the processing

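For shares, numbers of members and counts of genes, 58 alternative values kept to the main value and 22 moved. Kept means within 1.5 times the main value for a number of members or genes and inside its 95% counting interval for a share. A kept number does not mean that the same genes were called. Against Mpo-low monocyte cells, 79 of 128 higher and 101 of 156 lower calls remained with F13a1 and Klf4 set per 10000. After thinning to 8800 counts, 92 of the 128 higher calls remained. With F13a1 and Klf4 set per 10000 counts the members numbered 483. The share of members in A963 was 6.15% with at least 10 F13a1 counts, 5.60% with at least 3 Klf4 counts, 5.85% with Mpo of at least 6 per 10000, 4.96% with the limits per 10000 and 12.5% among cells of at least 20000 counts. In A965 the same settings gave 6.48%, 6.0%, 6.18%, 3.79% and 9.69%. With 1 CPM added, 217 genes were higher than in Mpo-low monocyte cells, and 60 were higher and 48 lower in A965 than in A963. Without a CPM minimum, 414 genes were lower than in Mpo-positive cells, and 58 were higher and 44 lower in A965. With cells thinned to 8800 counts, 62 were higher in A965. Within Mpo ranges, chosen to hold Mpo alike and with fewer cells, 81 genes were lower at 3 to under 10 per 10000, 61 higher at 10 to under 30, and 92 higher and 62 lower at 30 or more.

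Only Hba-a1 and the erythroid list turned direction among the named genes and the lists followed. Lists with few tested genes or a main median log2 ratio near 0 were not followed. The erythroid list against Mpo-positive cells had a median log2 ratio of 0.73, which was -0.0093 as a mean over cells, -0.90 without Scrublet calls, -0.56 with Mpo of at least 6 per 10000 and -0.014 after thinning. Between A965 and A963 it was -0.45, but 0.075 as a mean over cells and 0.46 with Mpo of at least 6. Hba-a1 between A965 and A963 was -0.61, but 0.013 as a mean over cells, 0.59 with Mpo of at least 6 and 0.024 at Mpo of 10 to under 30. The cause was not tested. For single genes and lists, 653 alternative log2 values kept within 0.1 of the main value, 299 moved further without changing direction and 9 reversed. No paired analysis was possible because each hashtag is 1 sample without a replicate number shared between groups. Depth limits genes of low level and the small hashtags, whose 14 to 20 members each give wide intervals.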
